A study of Mus musculus with 2 samples.

Results

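Aminoacyl tRNA synthetases are the enzymes that join each amino acid to its transfer RNA before translation. The 36 genes described here were chosen by symbol. They comprise 20 enzymes of the cytosol and 16 mitochondrial enzymes, whose symbols end in 2, and all 36 were found among the 24062 genes counted.

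In animal cells the cytosolic and mitochondrial enzymes for an amino acid are in most cases made from separate nuclear genes, and the mitochondrial enzymes serve the few proteins encoded by the mitochondrial genome. Kars and Gars are exceptions, since each makes both a cytosolic and a mitochondrial enzyme. Several cytosolic enzymes sit together in the multi-synthetase complex on non-enzyme scaffold proteins. When amino acids are short, uncharged tRNA activates the kinase GCN2, and the transcription factor ATF4 then raises genes of amino acid supply, several cytosolic synthetases among them.

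RNA was sequenced from haematopoietic progenitor cells of the C57BL6 mouse aorta at embryonic day 11. Both groups were CD31+ KITint cells, that is, cells with the endothelial and blood surface protein CD31 and intermediate surface KIT. They were sorted by the Gata2Venus transgene, a fluorescent reporter of the blood transcription factor Gata2, whose signal was absent in the Gata2Venus-negative group (1 library) and present in the Gata2Venus-positive group (1 library). The series asks how progenitors that do not depend on Gata2 differ from those that express it. The number of embryos behind a library is not given in the sources used here.

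With 1 library a group there was no replicate check and no test between conditions. Every value compares these libraries only, and the 95% intervals cover counting error alone. Gene counts totalled 10135400 for the negative library and 9715131 for the positive one. Levels are in CPM, that is, counts scaled to a common library size, here after TMM normalization, and a ratio is the negative library over the positive, on the log2 scale. A gene was past the rule of size when its higher library held at least 10 CPM and 50 counts of it and the exact interval of the ratio lay wholly beyond 2-fold.

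Of the label markers, Gata2 had 141 counts (negative library) and 664 (positive), Kit 2072 and 574, and Pecam1, which encodes CD31, 5593 and 4627. The blood progenitor genes Runx1 (21 and 303 counts), Cd34 (4736 and 7177) and Ptprc (194 and 498) were lower in the negative library. The libraries also differed in markers of other cells. Past the rule and lower in the negative library were 5 of 8 endothelial, 6 of 8 macrophage and 5 of 8 megakaryocyte genes. Of all genes that reached the rule's CPM and count limits, 14.9% were past it on that side. The summed levels of these marker lists were 2061, 198 and 86.3 CPM against 4260, 853 and 389 CPM. Of the megakaryocyte markers Gp1bb and Gp5 were at 0 in the negative library. Of 9 mesenchymal genes, 6 were past the rule and higher there, beside 15.2% of all genes, with summed levels of 7247 and 4292 CPM. Dcn (ratio −0.74) and Col1a2 (ratio −0.13) were lower there, with intervals wholly below equal expression. Of 8 erythroid genes 4 reached those limits, and of these Gata1 was past the rule and lower and 0 were past it and higher. Gata1, Klf1 and Epor were at 0 in the negative library. The globin genes Hbb-y (1485 and 812 counts, ratio 0.73), Hbb-bh1 (1077 and 528, ratio 0.89) and Hba-x (825 and 331, ratio 1.18) went the other way. Their intervals lay wholly above equal expression without passing the rule. The summed levels of the 8 erythroid genes were 325 and 231 CPM. The part of these cells in the synthetase values was not tested, and in bulk RNA fewer cells of a type and less RNA per cell cannot be told apart. Rn45s, the ribosomal RNA precursor, took 5.33% of gene counts (negative) and 10.5% (positive).

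Cytosolic synthetases were at similar levels in both libraries, and 0 of 20 were past the rule, whereas 30.1% of the 10381 genes that reached its filter were. These genes are abundant, and the middle 50% of ratios ran from −0.84 to 0.81 over all genes and from −0.40 to 0.39 over the 1548 genes within the cytosolic members' range of mean level, 132 to 465 CPM. Of those 1548 genes, 8.46% were past the rule. The ratios ran from −0.87 for Cars to 1.04 for Aars, with 14 members above 0 and 6 below, of which Farsb and Hars turned to above 0 with scaling by total counts. The median was 0.22, beside −0.012 for all genes with at least 20 counts over both libraries. The interval lay wholly above equal expression for 13 of 20, where 43.4% of all genes at the filter and 45.4% of genes in the same level range did so, and wholly below it for 4, beside 42.9% and 42% of genes. With scaling by total counts these were 14 and 3, as the interval of Nars moved above equal expression and that of Iars came to hold it. In sum the 20 genes took 57791 counts, 0.570% of the negative library (exact interval 0.566 to 0.575%), and 44657, or 0.460%, of the positive one (0.455 to 0.464%). The log2 ratio of these sums was 0.23 after TMM scaling (interval 0.22 to 0.25) and 0.31 with scaling by total counts.

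**Figure D1:**
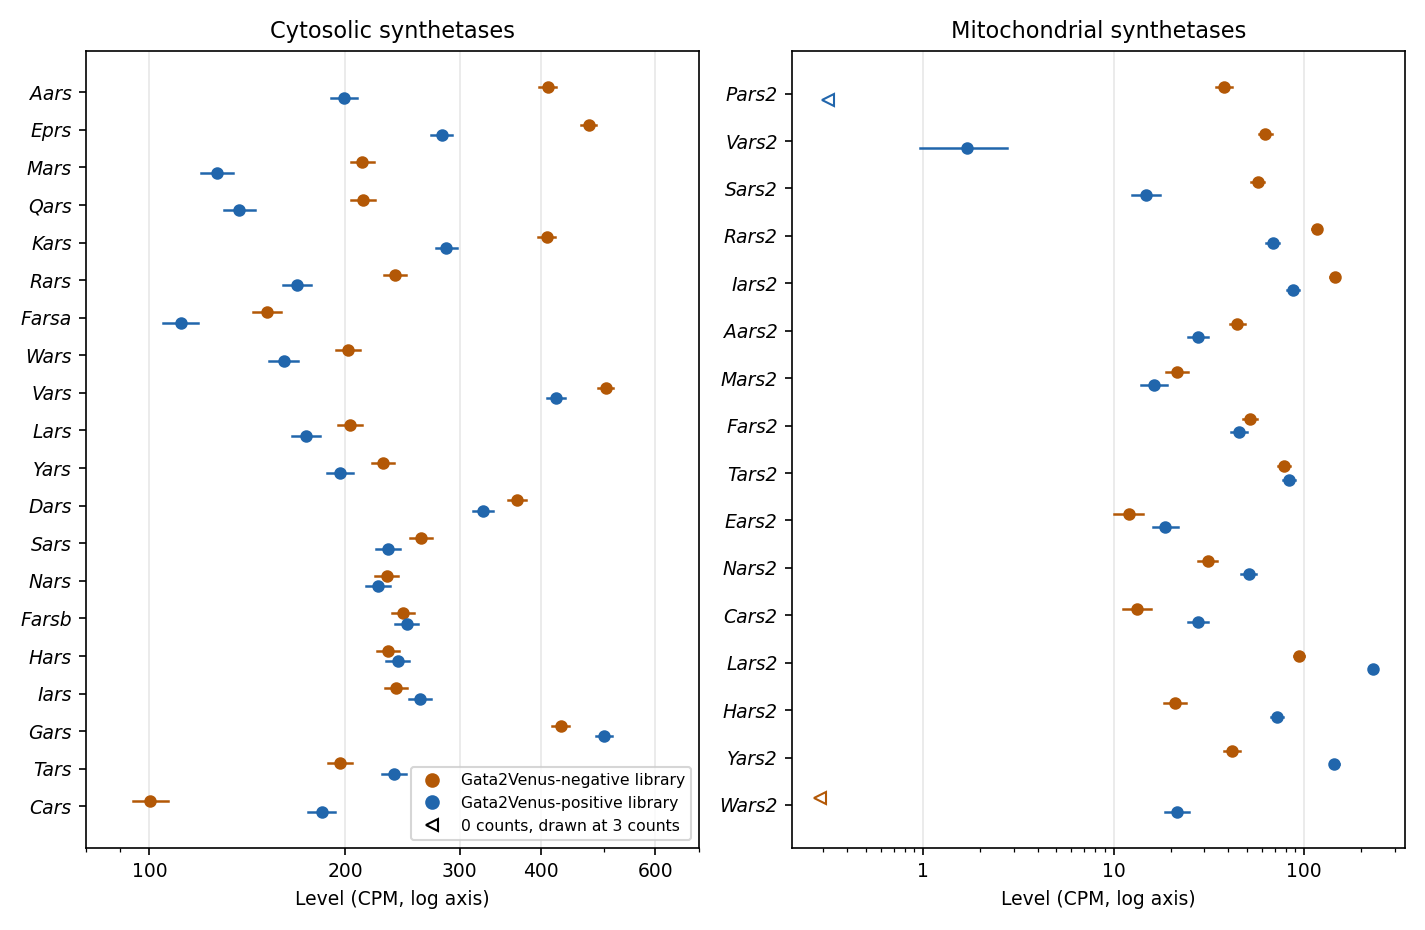
Level of each synthetase in CPM on log axes in the Gata2Venus-negative (brown) and Gata2Venus-positive (blue) library, with cytosolic enzymes on the left and mitochondrial enzymes on the right, ordered by ratio. Bars are exact Poisson 95% intervals, and the open triangles are 0 counts drawn at 3 counts, for Pars2 in the positive and Wars2 in the negative library.

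The 8 enzymes of the multi-synthetase complex leaned to the negative library. Their median ratio was 0.51, and 7 of 8 intervals lay above equal expression, beside 43.4% of all genes and 45.4% of genes in the cytosolic level range. All 8 were among the 20 just counted, and their summed counts of 24544 and 16664 gave a ratio of 0.42 (interval 0.39 to 0.45), that is, 1.34-fold. Eprs, a fusion of the glutamate and proline enzymes (chromosome 1, 185363044 to 185428360, mm10), had 4930 and 2661 counts, or 474 and 281 CPM (ratio 0.75, interval 0.68 to 0.82). Mars, which charges methionine tRNAs including the initiator, had 2214 and 1201 counts (ratio 0.74, interval 0.64 to 0.85). Both were higher in the negative library by less than 2-fold.

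The next 3 enzymes of the complex lay close to these values. Qars, the glutamine enzyme, had 2218 and 1301 counts (ratio 0.63, interval 0.53 to 0.73). Kars, the lysine enzyme, had 4253 and 2707 counts (ratio 0.51, interval 0.44 to 0.58), and Rars, the arginine enzyme, 2486 and 1596 (ratio 0.50, interval 0.41 to 0.59). The leucine enzyme Lars (2120 and 1647 counts, ratio 0.23) and the aspartate enzyme Dars (3828 and 3083, ratio 0.17) were nearer to equal. Iars, for isoleucine, was the member of the complex with a ratio below 0, at 2495 and 2468 counts (ratio −0.12, interval −0.20 to −0.04; −0.13 to 0.04 with scaling by total counts).

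The scaffold genes did not share this lean. Aimp1 had 782 and 1048 counts (ratio −0.56, interval −0.70 to −0.43), Aimp2 1437 and 1679 (ratio −0.36, interval −0.47 to −0.26) and Eef1e1 859 and 551 (ratio 0.50, interval 0.35 to 0.66). All 3 were within 2-fold, and 2 of them were lower in the negative library where most enzymes of the complex were higher.

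The 12 cytosolic enzymes outside the complex had a median ratio of 0.11 and summed counts of 33247 and 27993 (ratio 0.11, interval 0.09 to 0.13). Aars, the alanine enzyme (chromosome 8, 111033144 to 111057664), stood highest of the 20, with 4270 counts against 1883 in the positive library, or 410.1 and 199 CPM. It was 2.06-fold higher in the negative library (ratio 1.04, interval 0.96 to 1.12), just short of the rule, which it passed with scaling by total counts (ratio 1.12). Cars, the cysteine enzyme (chromosome 7, 143557230 to 143600090), stood lowest, with 1045 and 1740 counts (ratio −0.87, interval −0.99 to −0.76). Besides Cars, Tars, the threonine enzyme (2045 and 2249 counts, ratio −0.28, interval −0.36 to −0.19), and Gars, the glycine enzyme (4467 and 4733, ratio −0.22, interval −0.28 to −0.16), were lower in the negative library beyond counting error. With the interval asked to lie beyond 1.5-fold, Aars, Eprs and Mars were past it on the higher side (23.5% of all genes at the filter) and Cars on the lower (23%).

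Phenylalanyl tRNA synthetase is built from 2 kinds of subunit, and their genes differed slightly in ratio: Farsa had 1581 and 1056 counts (ratio 0.44, interval 0.33 to 0.56) and Farsb 2556 and 2351 (ratio −0.02, interval −0.10 to 0.06). The histidine enzyme Hars (2425 and 2279 counts, ratio −0.05) and the asparagine enzyme Nars (2411 and 2125, ratio 0.04) likewise had intervals that held equal expression. The remaining members were higher in the negative library by a small amount. Wars, for tryptophan, had 2105 and 1522 counts (ratio 0.33) and Vars, for valine, 5236 and 3994 (ratio 0.25). Yars, for tyrosine, had 2381 and 1860 counts (ratio 0.22), and Sars, for serine, 2725 and 2201 (ratio 0.17).

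Synthetases fall into 2 structural classes that bind ATP by unrelated folds. The 10 cytosolic class I genes, with Eprs counted here, had a median ratio of 0.29 and the 10 class II genes 0.11, and their ranges overlapped, from −0.87 to 0.75 and from −0.28 to 1.04.

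Per kilobase of exon, Gars and Kars, the enzymes made for both compartments, had the highest mean levels of all 36. Gars was at 180.3 CPM per kilobase (negative library) and 210.3 (positive), and Kars at 182 and 127. Over the cytosolic set this level ran from 31.2 to 182, median 78.9, in the negative library and from 34.6 to 210.3, median 62.5, for the positive one.

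Stretches upstream of the start site were searched in 26 of the 36 genes (RefSeq promoters, build GRCm38.p6, 250 bases before the start). Not matched were Cars, Hars, Lars, Mars, Nars, Rars, Vars, Wars, Hars2 and Pars2. The 8-letter word TGATGNAA, the core of the amino acid response element that ATF4 binds, was sought on both strands. It was found in 3 of 12 cytosolic genes, 0 of 14 mitochondrial genes and 3.91% of all 27025 genes in the promoter table. The matches of Gars and Tars are shown to place the word beside the start. The third gene, whose stretch is not reported here, had a ratio above 0, so genes with the word lay on both sides of equal expression. The word is in capitals as it reads on the strand of the gene, where it is reversed and complemented:
Gars: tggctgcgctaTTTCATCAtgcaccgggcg
Tars: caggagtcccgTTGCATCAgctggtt

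These lie at chr6:55037960-55037989 on the plus strand for Gars, with the word 23 bases before the start, and at chr15:11399659-11399684 on the minus strand for Tars, 8 bases before. The ratios of Gars and Tars were −0.22 and −0.28.

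The E-box CACGTG, a palindrome bound by MYC and its relatives, was present in 3 of 12 cytosolic genes, in 0 of 14 mitochondrial genes and in 6.86% of all genes in that table. It is shown in capitals, since these genes ran from the highest ratio of the set, in Aars, to values close to 0:
Aars: gtcaaccctgtCACGTGacactccatgt
Farsb: tagacaggcatCACGTGagacagcccaa
Iars: accaatcgccaCACGTGttgtttgtagg

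The E-box lies at chr8:111033685-111033712 on the plus strand in Aars, at chr1:78488920-78488947 on the minus strand in Farsb and at chr13:49682050-49682077 on the plus strand in Iars. The Aars stretch is upstream of the RefSeq start used in the search, but inside the GENCODE span given for the gene above. The ratios of Farsb and Iars, −0.02 and −0.12, were close to 0. A match describes these letters and is not a measured binding site.

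Mitochondrial synthetases were scattered rather than shifted. Of 16, 3 were past the rule and higher in the negative library (Pars2, Vars2 and Sars2) and 4 were past it and lower (Wars2, Yars2, Hars2 and Lars2), while 9 were not past it. Among all genes at the filter 15.2% were past it on the higher and 14.9% on the lower side. Of the 8050 genes within the range of mean level of the mitochondrial members, 10.8 to 163 CPM, 27.6% were past it in either direction. The median ratio was 0.05, with 8 members above 0 and 8 below. Setting Pars2 and Wars2 to the bound that 3 counts give could not move it, since they stay at opposite ends of the ratios. The middle 50% of the ratios spanned −1.12 to 0.74, beside −0.68 to 0.72 for genes in the same level range.

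**Figure D2:**
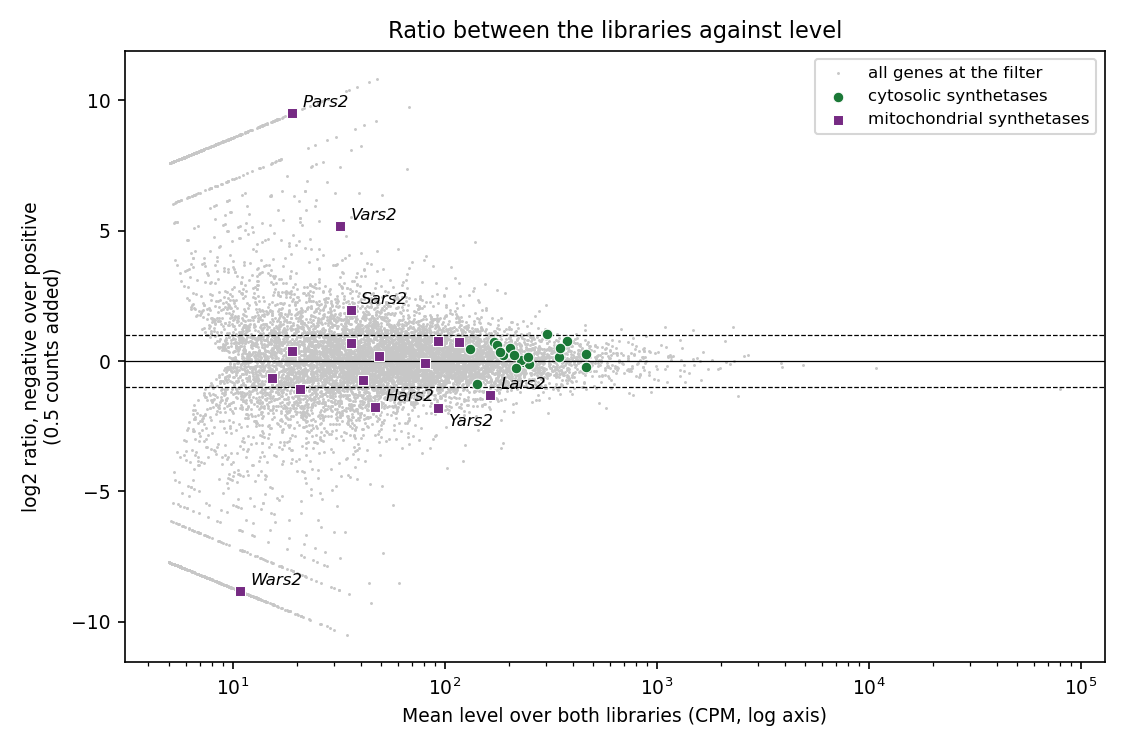
log2 ratio of the negative over the positive library, with 0.5 counts added, against the mean level in CPM on a log axis, for all genes at the filter (grey), cytosolic synthetases (green circles) and mitochondrial synthetases (purple squares). Dashed lines are 2-fold. The cytosolic genes lie between −0.87 and 1.04, and the labelled mitochondrial genes are the 7 past the rule.

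Pars2, the mitochondrial proline enzyme (chromosome 4, 106651069 to 106655282), had 395 counts in the Gata2Venus-negative library but 0 in the other. There 3 counts equal 0.317 CPM, and the exact upper limit for 0 counts was 0.390 CPM. Pars2 was 119.6-fold higher in the negative library with 0 set to 3 counts, and the exact interval of its ratio began at 6.60. Wars2, the mitochondrial tryptophan enzyme (chromosome 3, 99141068 to 99239186), went the other way, with 0 counts against 204 in the Gata2Venus-positive library. It was 74.9-fold lower in the negative library with 0 set to 3 counts, and the exact interval of its ratio ended at −5.91. Genes at 0 in a single library were not rare. Of 10374 genes with at least 100 counts in a library, 5.55% were at 0 in the other, and 2.05% of those in the mitochondrial members' level range. With a filter of 50 CPM neither Pars2 nor Wars2 was past the rule, since both were below that level in both libraries.

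Vars2, the mitochondrial valine enzyme (chromosome 17, 35655634 to 35667592), had 651 counts against 16 in the positive library, 62.5 against 1.69 CPM, a 37.0-fold difference (ratio 5.21, interval 4.50 to 6.02). Sars2, which charges mitochondrial serine tRNAs (chromosome 7, 28741992 to 28753871), had 593 and 140 counts, 57.0 and 14.8 CPM, and was 3.85-fold higher in the negative library (ratio 1.94, interval 1.68 to 2.22).

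Yars2, the mitochondrial tyrosine enzyme (chromosome 16, 16302965 to 16309640), had 436 and 1365 counts, 41.9 and 144 CPM, 3.45-fold lower in the negative library (ratio −1.79, interval −1.94 to −1.63). Hars2, the histidine enzyme (chromosome 18, 36783008 to 36792562), had 220 and 684 counts, 21.1 and 72.3 CPM, 3.42-fold lower (ratio −1.78, interval −2.00 to −1.55). Lars2, the leucine enzyme (chromosome 9, 123366927 to 123462666), had 979 and 2187 counts, 94.0 and 231 CPM, 2.46-fold lower (ratio −1.30, interval −1.41 to −1.19).

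With the interval asked to lie beyond 4-fold, Pars2 and Vars2 were past it on the higher side (7.17% of all genes at the filter) and Wars2 on the lower (7.23%). The other 4, Sars2, Yars2, Hars2 and Lars2, were not, nor were they past the 2-fold rule once a coefficient of variation of 0.4 was assumed for each gene. Lars2 is known to carry a stretch related to ribosomal RNA, and the ratio of Rn45s was −1.05. The part of ribosomal RNA reads in the Lars2 value was not tested.

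The other 9 mitochondrial genes lay nearer to equal. Intervals wholly above equal expression were found for 8 of all 16 (42.6% of genes in their level range) and below it for 7 (42.3%). Higher in the negative library beyond counting error were Rars2, for arginine (1212 and 646 counts, ratio 0.77), Iars2, for isoleucine (1507 and 827, ratio 0.73), and Aars2, for alanine (464 and 264, ratio 0.67). So were Mars2, for methionine (225 and 155 counts, ratio 0.40), and Fars2, for phenylalanine (542 and 432, ratio 0.19, interval 0.00 to 0.37, which held equal expression with scaling that left out the 100 most abundant genes). Lower were Cars2, for cysteine (139 and 264 counts, ratio −1.06, interval −1.37 to −0.76), Nars2, for asparagine (325 and 484, ratio −0.71), and Ears2, for glutamate (125 and 177, ratio −0.64). For Tars2, the threonine enzyme, 817 and 789 counts gave an interval that held equal expression (ratio −0.09, interval −0.23 to 0.05).

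In sum the 16 mitochondrial genes had 8630 and 8634 counts, 0.0851% and 0.0889% of all counts. The ratio of these sums was −0.14 after TMM scaling (interval −0.18 to −0.10) and −0.062 with scaling by total counts. This sign rested on Lars2, since without it the counts were 7651 and 6447 and the ratio 0.11 (interval 0.06 to 0.16). Per kilobase of exon the mitochondrial genes were below the cytosolic ones in most cases, with medians of 13.3 (negative library) and 12.7 CPM per kilobase (positive). Of 16, 15 were below every cytosolic gene in the negative library, and 13 were so in the positive one. The 2 with the highest mean were Rars2, at 62.3 and 36.6, and Lars2, at 24.1 and 59.4.

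Enzymes of the same amino acid were then set side by side over 16 pairs, with Farsa standing for phenylalanine and Eprs entering for both glutamate and proline. The mitochondrial and cytosolic ratios had the same sign in 10 pairs and opposite signs in 6, and the mitochondrial enzyme lay farther from equal expression in 11. The signs of Hars, Nars and Tars2 are uncertain, as their intervals held equal expression. With scaling by total counts the histidine pair turned to opposite signs, with Hars at 0.03 and Hars2 at −1.70. For valine, Vars stood at 503 and 422 CPM and Vars2 at 62.5 and 1.69 CPM. For tyrosine, Yars was slightly higher in the negative library (ratio 0.22) and Yars2 lower (ratio −1.79). Per kilobase, Yars was 5.91-fold above Yars2 in the negative library and 1.48-fold above it in the other. For cysteine the enzymes lay close together, with ratios of −0.87 for Cars and −1.06 for Cars2, and for arginine too, with 0.50 for Rars and 0.77 for Rars2.

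**Figure D3:**
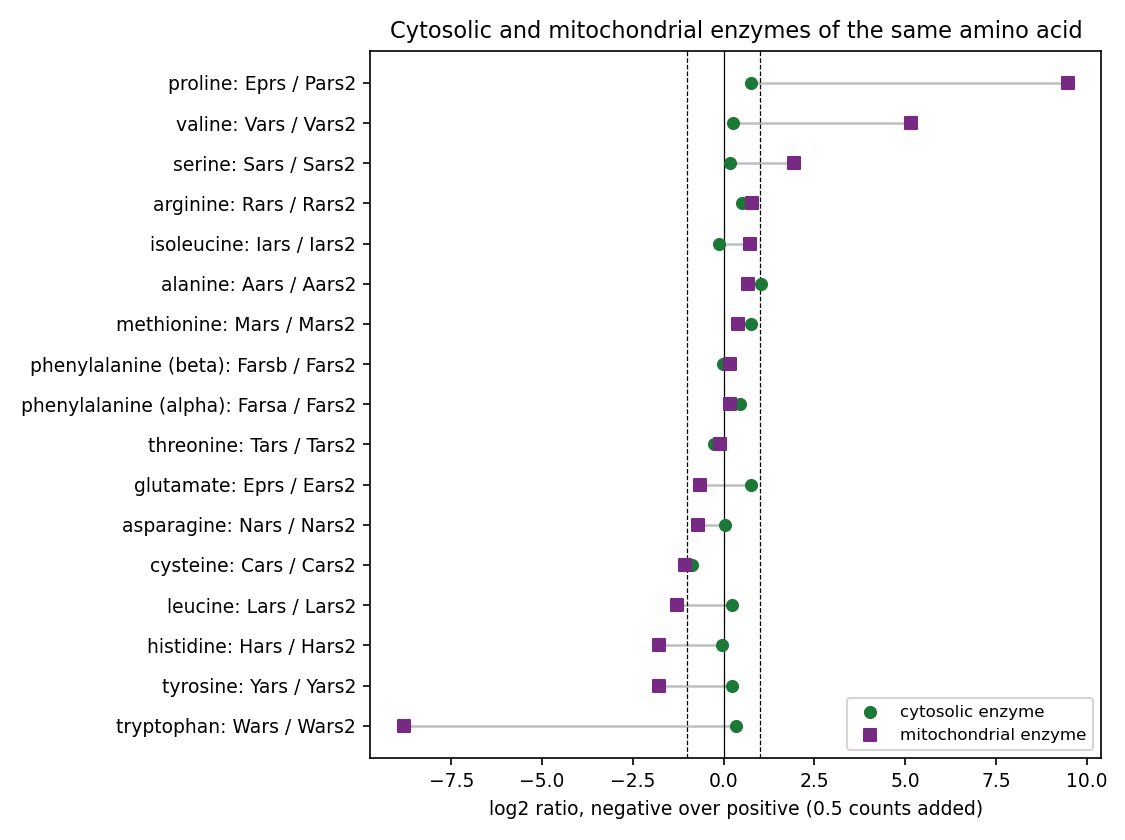
log2 ratio of the negative over the positive library, with 0.5 counts added, for the cytosolic (green circle) and mitochondrial (purple square) enzyme of each amino acid; Eprs and Fars2 each appear in 2 rows. Dashed lines are 2-fold. The cytosolic enzymes lie between −0.87 (Cars) and 1.04 (Aars). The widest gaps are those of tryptophan and proline, whose mitochondrial gene had 0 counts in a library.

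Several synthetase genes start beside another gene on the opposite strand, within 1000 bases between starts in GENCODE vM21. Sars2 starts 172 bases from Mrps12, a mitochondrial ribosomal protein gene that had 886 and 860 counts (ratio −0.10, interval −0.23 to 0.04), whereas Sars2 was 3.85-fold higher in the negative library. Kars starts 75 bases from Terf2ip, a telomere protein gene with 168 and 609 counts (ratio −2.00, interval −2.25 to −1.75), which was past the rule on the lower side where Kars had a ratio of 0.51. Rars2 starts 13 bases from Orc3, a replication origin gene with 1611 and 1060 counts (ratio 0.47), and both were higher in the negative library. Hars and Hars2 start head to head with 195 bases of exon in common, and Hars was equal between the libraries within counting error while Hars2 was lower in the negative library.

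The 146 bases between the RefSeq starts of Mrps12 and Sars2 (chr7:28741822-28741967, GRCm38.p6, strand of Sars2) are shown as the stretch upstream of both genes of this unequal pair, with no letters in capitals because neither word searched was found in it:
Sars2: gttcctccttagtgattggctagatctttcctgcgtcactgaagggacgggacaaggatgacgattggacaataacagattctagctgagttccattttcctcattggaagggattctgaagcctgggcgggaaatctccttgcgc

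Some members share exon bases with a neighbour. For neighbours on the other strand such reads cannot be told apart where strand was not used in counting, which no source here states. For neighbours on the same strand the strand setting does not separate them. Iars2 shares 2034 exon bases (22.9% of its merged exons) with Rab3gap2 on the other strand, and Aars shares 1326 (14.3%) with Exosc6 on its own. Vars2 shares 465 (8.52%) with the antisense gene Gm20483. Pars2, Sars2, Yars2 and Lars2 shared none with another annotated gene.

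Other genes of tRNA charging were examined from lists of the pathway. The 6 related and proofreading genes described here were not past the rule. Prorsd1, a relative of the proline enzyme, had 117 and 42 counts (ratio 1.34, interval 0.82 to 1.88), and Tarsl2, a second threonine enzyme, 173 and 129 (ratio 0.28). Aarsd1, a relative of the alanine enzyme, was lower by a small amount (589 and 658 counts, ratio −0.30, interval −0.46 to −0.14). The intervals of the D-aminoacyl tRNA deacylase genes Dtd1 (617 and 601 counts, ratio −0.10) and Dtd2 (301 and 295, ratio −0.11) held equal expression. The peptidyl tRNA hydrolase gene Ptrh2 had 1107 and 820 counts (ratio 0.29).

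Genes that act beside the mitochondrial synthetases leaned to the negative library without passing the rule. Of 8, 0 were past it, beside 30.1% of all genes, and the median was 0.57. Intervals lay above equal expression for 6 and below it for 1, beside 43.4% and 42.9% of all genes, and Tsfm joined the former with scaling by total counts. Glutaminyl tRNA is made in mitochondria by an amidotransferase in place of a synthetase. Its subunit genes had 474 and 222 counts (Gatb, under its older symbol Pet112, ratio 0.96), 160 and 87 (Qrsl1, ratio 0.74) and 617 and 422 (Gatc, ratio 0.41). Mtfmt, which formylates the initiator methionyl tRNA, had 250 and 98 counts (ratio 1.21, interval 0.87 to 1.56). Of the elongation factors, Gfm1 had 1699 and 770 counts (ratio 1.00), Gfm2 689 and 496 (ratio 0.34), Tsfm 570 and 480 (ratio 0.11) and Tufm 139 and 194 (ratio −0.62, interval −0.94 to −0.30).

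Of 18 genes of GCN2 and ATF4 signalling, which senses amino acid shortage, 11 reached the filter and 2 were past the rule, a lower share than the 30.1% of all genes. Both were higher in the negative library (15.2% of all genes), with a list median of −0.04 that was above 0 with scaling by total counts. Eif2ak4, which encodes GCN2, had 586 and 159 counts (3.35-fold higher, ratio 1.74, interval 1.49 to 2.01), and Eif2ak2, the kinase of double-stranded RNA, 366 and 15 (ratio 4.47, interval 3.73 to 5.32). Atf4 itself, named like the next 2 after its values were seen, had 1871 and 2075 counts (ratio −0.29, interval −0.38 to −0.20). The stress genes Ddit3 (5 and 68 counts) and Chac1 (1 and 57) were below the filter.

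Of 18 genes of amino acid synthesis and transport 16 reached the filter, with 1 past the rule on the higher and 3 on the lower side, beside 15.2% and 14.9% of all genes, and a median of −0.13. Read against those shares, the count is near the background. Slc7a3, a transporter of cationic amino acids, had 300 counts in the Gata2Venus-negative library but 0 in the other. It was 90.8-fold higher in the negative library with 0 set to 3 counts. Slc1a4, a transporter of neutral amino acids, had 1 and 286 counts (ratio −8.30, interval −13.61 to −5.81), Psph, the last enzyme of serine synthesis, 23 and 306 (ratio −3.87), and Slc7a5, which imports large neutral amino acids, 79 and 335 (ratio −2.22, interval −2.60 to −1.87). Asns, the asparagine synthetase and a target of ATF4, was named after its values were seen and had 2128 and 1681 counts (ratio 0.20).

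**Figure D4:**
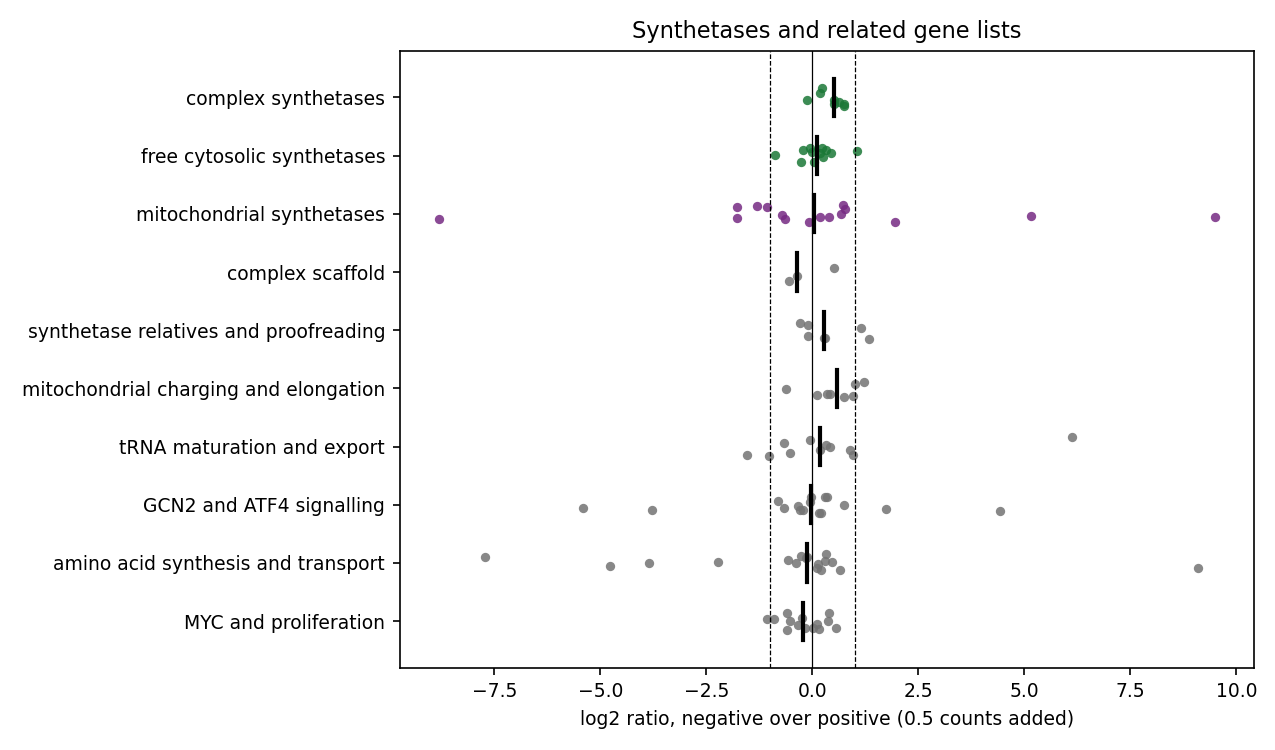
log2 ratio of the negative over the positive library, with 0.5 counts added, for each gene with at least 20 counts over both libraries in the synthetase sets and related lists. Points are genes with a random vertical offset, black bars are list medians, and dashed lines are 2-fold. The medians lie between −0.36 for the scaffold genes and 0.57 for mitochondrial charging and elongation.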

How the data were processed

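RNA was prepared with Ambion's mirVana kit and the SMARTER cDNA method, per the labels' protocols. The authors deposited raw whole-number counts, 1 row per gene symbol. TopHat, Cufflinks, HTSeq and build mm10 are named per the submitters' processing notes, and no source used here gives their versions, the annotation or the strand setting. Rows for reads in no gene did not enter library sizes: 45.5% and 48.2% of all counts (negative, positive library) were alignments that are not unique, 5.93% and 7.996% no feature, and 0.474% and 0.412% ambiguous. The cDNA was amplified and the reads carry no molecular identifiers, so the true intervals can be wider.

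TMM factors (1.03 and 0.974; edgeR 4.0.16, R 4.3.3) were fitted on all 24062 genes. Ratio intervals were Clopper-Pearson given the gene's total, and levels had exact Poisson intervals. List medians used genes whose counts summed to at least 20, with 0.5 counts added. Alternatives included scaling by total counts and by DESeq2 1.42.0 size factors. The steps were tested on simulated data. Exon lengths (basic protein-coding transcripts) and positions came from GENCODE vM21 of mm10. All 36 members were named, and from other lists up to 4 genes past the rule, the 2 most abundant where fewer passed, and pathway lists of under 9 genes in full; marker lists are given as counts and sums. Some genes of these lists and 1 promoter stretch are not reported here. The members and lists were chosen with earlier results of these data known. The background by level range, the count of intervals above or below equal expression, and its recount under other scalings were added after seeing the data.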

Additional observations from a re-analysis of the deposited data

How the results depend on the processing

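The counts past the rule in the synthetase sets depended mainly on the size asked for. With an interval beyond 1.5-fold, 3 cytosolic genes were higher in the negative library (Aars, Eprs and Mars) and 1 was lower (Cars). At that size 5 mitochondrial genes were higher and 5 lower, and 46.5% of all genes at the filter were past it. With an interval beyond 4-fold, 2 mitochondrial genes were higher and 1 lower, and 14.4% of all genes were past it. With an assumed coefficient of variation of 0.4, 2 mitochondrial genes were higher and 1 lower, and 12.7% of all genes were past the rule. With scaling by total counts, and with a 2-fold ratio without the interval, 1 cytosolic gene, Aars, was past the rule. Of the 7 genes past the rule, 0 changed sign, but the alternatives run could not have changed one. Scaling by total counts shifted every ratio by 0.08, the other settings by little or nothing, and the ratio nearest to equal was −1.30, of Lars2. The summed cytosolic ratio was 0.28 without Gars and 0.31 with scaling by total counts, and the summed mitochondrial ratio was −0.062 with scaling by total counts and turned to 0.11 without Lars2. With a filter of 50 CPM the calls of Pars2 and Wars2 ended, which left 2 mitochondrial genes higher and 3 lower. Other scalings, filters and thinning of the deeper library left the other counts within 1.5 times. No paired analysis was possible because each group has 1 library, and for the same reason no library could be left out. Depth limits low genes most: 16 counts of Vars2 leave an interval of 4.50 to 6.02.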

Other observations

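Genes of growth and division were listed as well, and their part in the synthetase values was not tested. Of 14 genes of MYC and proliferation, 0 were past the rule, beside 30.1% of all genes at the filter. Intervals lay above equal expression for 5 and below it for 8, beside 43.4% and 42.9% of all genes, and the median was −0.21. With scaling by total counts 6 intervals lay above and 7 below, as Ccna2 moved above and Myc came to hold equal expression. The 2 most abundant, Ncl, a nucleolar protein gene (18952 and 20459 counts, ratio −0.25), and Top2a, the topoisomerase of dividing cells (13707 and 8521, ratio 0.55), lay on opposite sides of 0.

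Of 11 genes of tRNA maturation and export, 10 reached the filter, where 30.1% of all genes were past the rule, and 1 was past it. This was Tsen15, a subunit of the tRNA splicing endonuclease, with 215 counts against 571 (2.92-fold lower in negative cells, ratio −1.55, interval −1.78 to −1.32), and another subunit gene, Tsen34, named after its values were seen, had 1647 and 764 counts (ratio 0.97, interval 0.84 to 1.10). The 2 most abundant were Ssb, which binds new tRNA ends (5784 and 4651 counts, ratio 0.18), and Rtcb, the tRNA ligase (3064 and 4006, ratio −0.53).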
